A study of Mus musculus with 6 samples.

Results

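Genes of iron handling and heme breakdown, 10 in all, were followed in the renal cortex of mice after ischemia/reperfusion. They are Hmox1, Fth1, Ftl1, Ncoa4, Trf, Tfrc, Steap3, Hfe, Aco1 and Ireb2. They were taken by gene symbol from a count table of 22040 genes, of which 21957 had a value in every library, and all 10 passed the expression filter that left 13609 genes for testing. RNA-seq libraries came from the cortex of wild-type C57BL/6 mice, 3 after sham surgery (sham) and 3 after clamping of both renal pedicles for 30 min followed by 24 h of reperfusion (IR24h), a model of acute kidney injury. The labels do not say whether each library came from its own mouse, so p-values measure the spread between these libraries, which may be technical. Neither age nor sex is stated. Where 3 values are listed for a group, they follow the order of its libraries 1, 2 and 3.

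Cells take up iron bound to transferrin, the protein encoded by Trf, through the transferrin receptor encoded by Tfrc. STEAP3 then reduces the iron in the endosome, and HFE, a partner of the receptor, takes part in sensing iron. Iron that is not used is stored in ferritin, a shell of heavy chains (Fth1) and light chains (Ftl1), and NCOA4 delivers ferritin to the lysosome to release it. Heme oxygenase 1 (Hmox1) opens the heme ring and frees iron, carbon monoxide and biliverdin. Its gene is a widely used marker of the response to heme and oxidants in the injured kidney. The iron regulatory proteins encoded by Aco1 and Ireb2 bind hairpins in messenger RNAs when iron is scarce. Such binding blocks translation of ferritin and protects the transferrin receptor message from decay.

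Sequences that match the hairpin these regulatory proteins bind were searched for in the UTRs of the transcripts of GENCODE M21 (GRCm38), to show which of the genes hold the element and where. A match is a description, not proof of binding. The search took a C, 5 bases, the loop CAGTGN with A, C or T as its last base, and 5 bases that pair with the first 5, G with T pairs included. It was made on the transcribed strand only. Among the 10 genes, Fth1 and Ftl1 held it in the 5′ UTR and Tfrc in the 3′ UTR. For background, 23 of 20916 genes with a 5′ UTR (0.11%) and 100 of 21045 genes with a 3′ UTR (0.475%) held it. Each sequence below is DNA, 5′ to 3′, with the 6-base loop in capitals and 6 bases on either side of the 17-base element. The positions are those of the element.
Fth1, 5′ UTR, plus strand, chr19:9982738-9982754: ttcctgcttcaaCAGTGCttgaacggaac
Ftl1, 5′ UTR, minus strand, chr7:45459785-45459801: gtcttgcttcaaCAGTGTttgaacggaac
Tfrc, 3′ UTR, plus strand, chr16:32631225-32631241: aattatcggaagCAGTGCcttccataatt
Tfrc, 3′ UTR, plus strand, chr16:32631604-32631620: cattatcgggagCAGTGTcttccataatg
Tfrc, 3′ UTR, plus strand, chr16:32631669-32631685: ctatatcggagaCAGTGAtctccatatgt
Tfrc, 3′ UTR, plus strand, chr16:32631716-32631732: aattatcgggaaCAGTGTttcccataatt
The ferritin genes thus held 1 match each and Tfrc held 4. A hairpin that departs from the pattern searched would not have been found. RNA-seq counts report message amount and not translation, so the part of regulation that acts on ferritin translation was not measured.

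Features of the whole series bear on every value given here. Libraries held 14339985 to 17061844 counts in sham and 12877853 to 16000942 in IR24h. Genes of the mitochondrial genome took 13.1 to 14.2% of counts in sham and 68.9, 26.2 and 49.2% in IR24h libraries 1, 2 and 3. Across genes, log2 CPM of IR24h library 2 correlated with the sham libraries at r = 0.842 to 0.852 and with IR24h libraries 1 and 3 at 0.818 and 0.833. Libraries 1 and 3 correlated with each other at 0.911. The 9 fat cell markers summed to 34.3, 47 and 46.8 CPM across sham and 111, 175 and 101 CPM across IR24h. Of 2 that were tested, Fabp4 rose, beside 8.65% higher of all genes tested. It had 13.2, 16.6 and 23.4 CPM across sham and 66.8, 65.1 and 82.9 CPM across IR24h. Fabp4 alone made up most of the sum in IR24h libraries 1 and 3. Adipoq, Plin1 and Lep, which define fat cells, were at 16, 12.6 and 22.2 CPM in IR24h library 2 and at 0 counts in the sham libraries and IR24h library 1. In IR24h library 3 Adipoq was at 0.262 CPM and Plin1 and Lep at 0. Cidec and Cfd were also present in IR24h library 1, at 6.82 and 3.13 CPM. The 10 proximal tubule markers mark kidney cortex. Their summed level was 24407 to 30010 CPM in sham and 8593 to 17488 CPM in IR24h. Of these markers 7 fell and 0 rose, beside 7.62% lower and 8.65% higher of all genes tested. Without Kap, the most abundant of them, the sums were 15598 to 16868 and 2730 to 3675 CPM. In bulk RNA, fewer cells of a type and less RNA per cell cannot be told apart.

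Hmox1 and Fth1 rose in the injured cortex, and none of the other 8 genes passed the test. With edgeR's quasi-likelihood test and Benjamini-Hochberg adjustment over all genes, 2 of the 10 were higher, against 8.65% of all genes tested. For the lower direction the count was 0 of 10, against 7.62% of all genes. At an unadjusted p under 0.05 the counts were 3 higher (Fth1, Hmox1 and Trf) and 2 lower (Aco1 and Ireb2), against 18.7% higher and 15.5% lower of all genes. With limma-voom 1 was higher (Fth1) and 1 lower (Aco1), against 7.39% and 8.8% of all genes. With DESeq2 2 were higher (Hmox1 and Fth1) and 1 lower (Aco1), against 15.3% and 12.5%. The 10 genes had a median log2 fold change of 0.07, beside 0.05 for all genes tested. With library size in place of TMM scaling these medians were −0.31 and −0.39, 0 of the 10 genes were called, and 2.92% of all genes were higher and 4.49% lower. In TMM-scaled CPM, Hmox1 and Fth1 were higher in each IR24h library than in any sham library, and Aco1 and Steap3 lower in each. Over all genes tested, 19.9% lay above and 21.7% below in this way. The other 6 genes overlapped between the groups. IR24h library 2 was the highest injured library for 8 of the 10 genes, as it was for 41.3% of all genes tested.

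**Figure D1:**
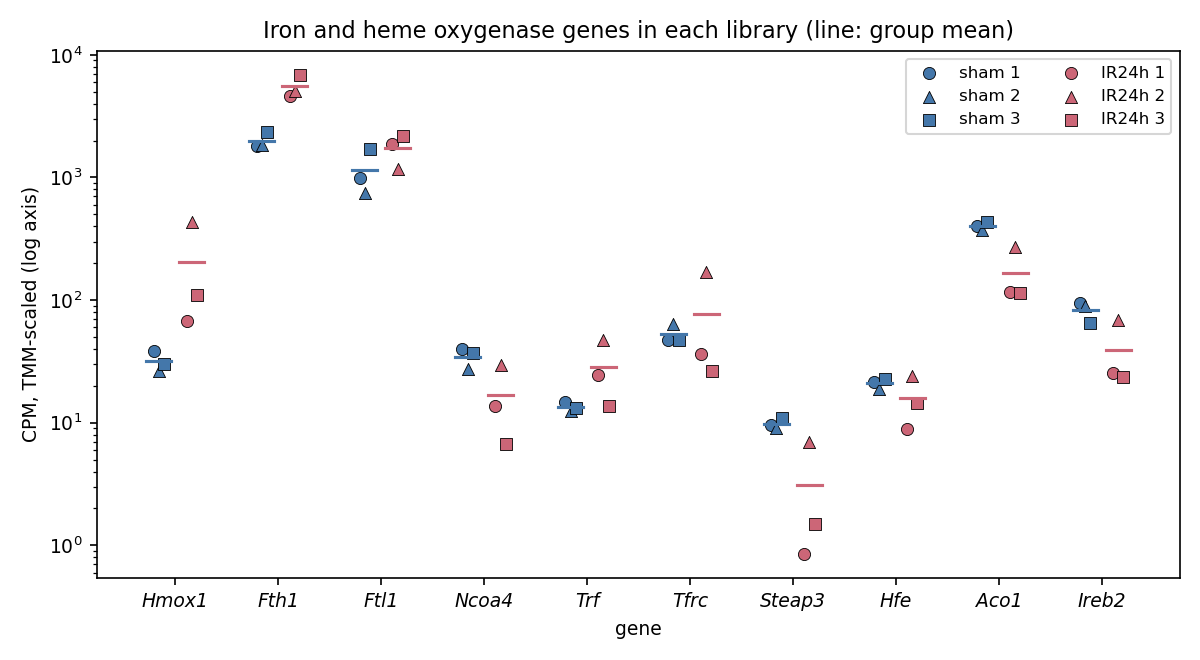
Level of each of the 10 genes in every library as TMM-scaled CPM on a log axis; blue points are sham, red points IR24h, the marker shape gives the library number and short lines the group means. Red triangles (IR24h library 2) stand above the other red points for 8 of the 10 genes, all but Fth1 and Ftl1.

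Levels between genes were set side by side per length in the sham libraries only, and their order depends on the gene lengths used for FPKM. By the authors' FPKM, Ftl1 stood at 393 ± 159 (SD, n = 3) and Fth1 at 320 ± 38.2, and they did not differ beyond their spread. Aco1 followed at 89.4 ± 4.47 FPKM, then Hmox1 at 15.1 ± 3.15 and Ireb2 at 9.2 ± 2.01. Hfe at 6.16 ± 0.424 and Tfrc at 6.01 ± 1.22 FPKM were within each other's spread. So were Trf at 2.97 ± 0.318 and Ncoa4 at 2.96 ± 0.558, and Steap3 was lowest at 1.06 ± 0.0699 FPKM. By these FPKM values the storage proteins had the most message per length in the sham cortex and the endosomal reductase the least. The gene lengths behind these FPKM values can be longer than any single transcript. For Hmox1 the length was 2343 bases, equal to the sum of its 2 transcripts in GENCODE M21, the longer of which has 1569 bases. The excess over the exon bases was uneven, with 6855 against 3469 bases for Fth1 and 3766 against 3572 bases for Hfe. Differences in FPKM between genes therefore depend in part on these lengths.

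Hmox1 (ENSMUSG00000005413) lies on chromosome 8 from 75093621 to 75100589. In CPM, counts scaled by TMM library size, it had 38.6, 26.6 and 30.4 CPM across sham and 67.5, 430 and 111 CPM across IR24h, which came from 676, 554 and 563 and from 475, 8421 and 1272 counts. In these TMM-scaled values all injured libraries stood above all sham libraries, and library 2 stood far above the other injured ones. By the authors' FPKM, scaled by read total, IR24h library 1 was at 15.7, within the 12.8 to 18.6 of sham. Of the counts outside the mitochondrial genes, Hmox1 took 0.0119% in that library and 0.00378 to 0.00543% in sham. Group means were 31.9 ± 6.12 (SD, n = 3) and 203 ± 198 CPM, and Hmox1 rose by 2.67 ± 0.68 (SE) on the log2 scale (adjusted p = 0.0371). Without IR24h library 2 the log2 fold change was 1.48 (adjusted p = 0.00511), and with that library as the only injured one 3.77. The call was lost without sham library 1, 2 or 3 (adjusted p = 0.115, 0.146 and 0.139) and without IR24h library 3 (0.0528).

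Hmox2, the constitutive heme oxygenase, had 31.1 ± 2.14 CPM in sham against 46.6 ± 12.7 CPM after injury (log2 fold change 0.58 ± 0.28, adjusted p = 0.187). A ratio of counts within a library does not depend on its scaling. The count ratio of Hmox1 to Hmox2 was 1.24, 0.92 and 0.914 across sham and 1.24, 13.5 and 2.09 across IR24h. The groups overlapped, since IR24h library 1 had the same ratio as sham library 1 to the digits given. In that library Hmox1 and Hmox2 were both above sham, whereas in library 2 only Hmox1 was.

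Fth1 (ENSMUSG00000024661; chromosome 19, 9980598 to 9985098) was the most abundant of the 10 genes by CPM in every library. It had 1791, 1824 and 2354 CPM across sham and 4586, 5099 and 6888 CPM across IR24h. The groups did not overlap, and library 2 lay between the other injured libraries. On counts, Fth1 rose by 1.47 ± 0.34 on the log2 scale (adjusted p = 0.0282), 2.78-fold. The value was 1.52 (adjusted p = 0.00506) without IR24h library 2. The call was lost without sham library 1, 2 or 3 (adjusted p = 0.162, 0.161 and 0.104) and without IR24h library 3 (0.0557). Of the counts outside the mitochondrial genes, Fth1 took 0.252 to 0.318% in sham and 0.806 to 1.17% in IR24h.

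The sham and IR24h values of Fth1 were not made on the same gene length. Count and FPKM together imply a length of 6855 bases in the sham libraries and 866 bases in the IR24h libraries, a 7.92-fold difference. The exons of Fth1 in GENCODE M21 cover 3469 bases. A length that differed by over 0.01 on the log2 scale was seen for 13.1% of the genes where it could be compared, and among the 10 genes also for Tfrc (9778 and 9643 bases). With the implied length as an offset in the fit, the log2 fold change of Fth1 was 4.46 (adjusted p = 9.05e-04; 11.7% of all genes higher and 7.58% lower in that fit) in place of 1.47, and that of Tfrc was 0.56 in place of 0.54. Both Fth1 values are higher in IR24h. The implied length in sham exceeds the exon bases and the longest transcript (2062 bases), so it need not be the length over which reads were counted. The value with the offset is therefore no measure of the size of the rise. On counts, the size of the rise cannot be told apart from the change of gene model between the groups.

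Ftl1 (ENSMUSG00000050708; chromosome 7, 45457944 to 45459884), the light chain, did not pass the test. It had 983, 745 and 1722 CPM across sham and 1878, 1165 and 2176 CPM across IR24h, with a log2 fold change of 0.6 ± 0.42 (adjusted p = 0.35). The groups overlapped because sham library 3 lay above IR24h library 2. In GENCODE M21, 47.3% of the 50-base stretches of Ftl1 are also found in Ftl1-ps1, a near-identical copy on chromosome 13 (74399694 to 74407346), and 26.5% of its exon bases lie opposite Gm10252. Ftl1-ps1 had 965, 998 and 1154 CPM across sham and 494, 587 and 227 CPM across IR24h (log2 fold change −1.25 ± 0.39, adjusted p = 0.0663). Ftl1 and its copy thus differed from sham in opposite directions, and each is uncertain on its own.

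The sum of Ftl1 and Ftl1-ps1 was 2189 ± 604 CPM (SD, n = 3) in sham and 2176 ± 368 CPM in IR24h. In all, 15 other genes share 50-base stretches with Ftl1, and of these only Ftl1-ps1 was added. The sum is thus not a total of light chain message. The log2 fold change of the sum was −0.01 (adjusted p = 0.988), a sum chosen after the values were seen. Ftl1 took 42.8 to 59.9% of these counts in sham and 79.2, 66.5 and 90.5% in IR24h libraries 1, 2 and 3, so that the share assigned to Ftl1 was higher in each injured library. Whether the assignment of shared reads differed between the groups was not tested. The count ratio of Fth1 to Ftl1 alone was 1.82, 2.45 and 1.37 across sham and 2.44, 4.38 and 3.17 across IR24h, and the groups overlapped. The count ratio of Fth1 to the sum was 0.92, 1.05 and 0.819 across sham and 1.93, 2.91 and 2.87 across IR24h. On the FPKM scale the ratio went from 0.269 ± 0.0155 to 7.59 ± 1.9, which carries the difference in the implied length of Fth1. On counts the groups thus separated against the sum and not against Ftl1 alone.

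**Figure D2:**
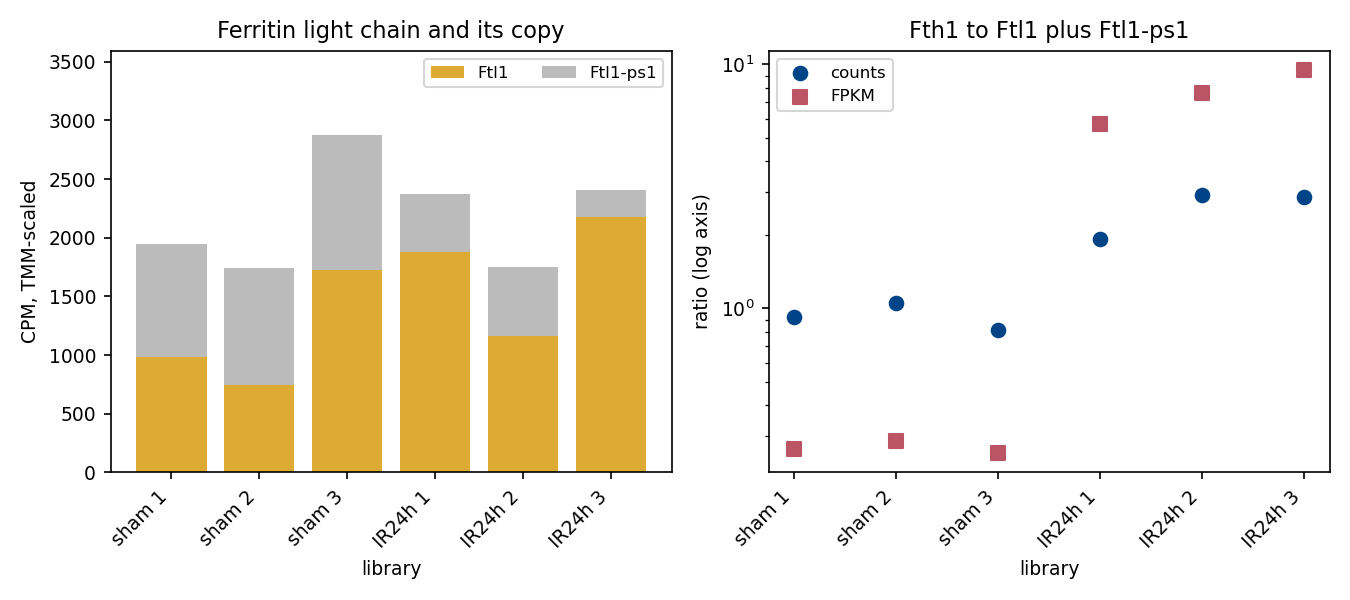
Left, TMM-scaled CPM of Ftl1 (yellow) and its near-identical copy Ftl1-ps1 (grey), stacked for each library; right, ratio of Fth1 to the sum of both in each library, on counts (circles) and on FPKM (squares), log axis. The stacked heights overlap between the groups, the yellow share is larger in the IR24h libraries, and the count ratio is at most 1.05 in sham and at least 1.93 in IR24h.

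Ncoa4 (ENSMUSG00000056234; chromosome 14, 32159865 to 32179855), the receptor that carries ferritin to the lysosome, had 39.7, 27.2 and 36.9 CPM in sham libraries 1 to 3. In IR24h libraries 1 to 3 it had 13.8, 29.4 and 6.73 CPM. IR24h library 2 lay within the sham range, and the other injured libraries lay below it. Over all libraries the log2 fold change was −1.05 ± 0.51 (adjusted p = 0.188), and −1.78 (adjusted p = 0.00735) without IR24h library 2. Of its 50-base stretches, 17.9% are shared with Gm6768.

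Of the uptake genes, none passed the test with all libraries. Trf (ENSMUSG00000032554; chromosome 9, 103204001 to 103230444) had 14.8, 12.4 and 13.3 CPM across sham and 24.6, 47.6 and 13.8 CPM across IR24h. IR24h library 3 was within the sham range and library 2 was highest. For Trf the log2 fold change was 1.09 ± 0.44 (adjusted p = 0.129). It was 0.49 (adjusted p = 0.186) without IR24h library 2, 1.42 (adjusted p = 0.0488) without library 3, and 1.83 with library 2 as the only injured library. In GENCODE M21, 58.5% of the 50-base stretches of Trf are shared with Gm20425, an overlapping gene model on the same strand, so the counts of Trf are uncertain. The part of the fat cell genes in these values was not tested.

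Tfrc (ENSMUSG00000022797; chromosome 16, 32608920 to 32632794) had 47.2, 64.4 and 47.6 CPM across sham and 36.6, 168 and 26.4 CPM across IR24h. Library 2 stood above all sham libraries, and libraries 1 and 3 stood below them. The injured libraries thus moved in opposite directions for this receptor, and the log2 fold change over all of them was 0.54 ± 0.66 (adjusted p = 0.599). Without IR24h library 2 it was −0.76 (adjusted p = 0.0386), and with that library as the only injured one 1.67 (adjusted p = 0.00269). The count ratio of Fth1 to Tfrc, a storage to an uptake gene, was 38, 28.3 and 49.5 in sham. It was 125, 30.4 and 261 in IR24h libraries 1 to 3, so that on counts only library 2 of the injured libraries lay within the sham range. On the FPKM scale the ratio was 54.2, 40.4 and 70.6 in sham and 1393, 339 and 2906 in IR24h, all above sham. That scale carries the implied lengths of Fth1 and Tfrc, which differed between the groups.

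Steap3 (ENSMUSG00000026389; chromosome 1, 120190757 to 120272705) had 9.54, 9.04 and 10.9 CPM across sham and 0.852, 6.95 and 1.49 CPM across IR24h. The groups did not overlap, with library 2 nearest to sham. In IR24h these levels rest on 6, 136 and 17 counts. For Steap3 the log2 fold change was −1.6 ± 0.69 (adjusted p = 0.148), and −3.02 (adjusted p = 9.07e-04) without IR24h library 2. Hfe (ENSMUSG00000006611; chromosome 13, 23702034 to 23710854) had 21.5, 19 and 22.6 CPM across sham and 8.95, 23.9 and 14.6 CPM across IR24h. Its groups overlapped, with library 2 above and the other injured libraries below all of sham. The log2 fold change of Hfe was −0.4 ± 0.37 (adjusted p = 0.478). Without IR24h library 2 it was −0.83 (adjusted p = 0.0369), and with that library alone 0.20.

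The iron regulatory genes were lower on average but did not pass the test. Aco1 (ENSMUSG00000028405; chromosome 4, 40143081 to 40198338), whose protein is either a cytosolic aconitase or an RNA-binding regulator, had 403, 372 and 432 CPM in sham libraries 1 to 3. In IR24h libraries 1 to 3 it had 117, 269 and 115 CPM, all below sham. Its log2 fold change was −1.27 ± 0.39 (adjusted p = 0.0635), with −1.39 (adjusted p = 0.0423) by limma-voom and −1.26 (adjusted p = 0.013) by DESeq2. Ireb2 (ENSMUSG00000032293; chromosome 9, 54863789 to 54912530), whose protein is degraded when iron is plentiful, had 94.7, 89.1 and 65.4 CPM across sham and 25.4, 69.1 and 23.7 CPM across IR24h. The groups of Ireb2 overlapped between sham library 3 and IR24h library 2 alone, and its log2 fold change was −1.07 ± 0.45 (adjusted p = 0.141). Without IR24h library 2 the values were −1.80 for Aco1 (adjusted p = 6.15e-04) and −1.76 for Ireb2 (adjusted p = 0.00145). The count ratio of Aco1 to Ireb2 was 4.17 to 6.61 in sham and 3.9 to 4.84 in IR24h, and these ranges overlapped.

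Leaving out IR24h library 2 changed the calls of most of these genes. Without it, Hmox1 and Fth1 were higher and Tfrc, Ncoa4, Hfe, Aco1, Ireb2 and Steap3 lower, with Ftl1 and Trf not called. These 2 higher and 6 lower of 10 genes stand beside 23.9% higher and 24.5% lower of all genes tested in that fit. The median of the 10 genes was then −0.80, and that of all genes −0.02. With IR24h library 2 as the only injured library, Hmox1, Fth1, Trf and Tfrc were called higher and Aco1 lower, beside 18.8% higher and 19.2% lower of all genes tested. That fit assumes that the lone injured library varies like the sham libraries.

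**Figure D3:**
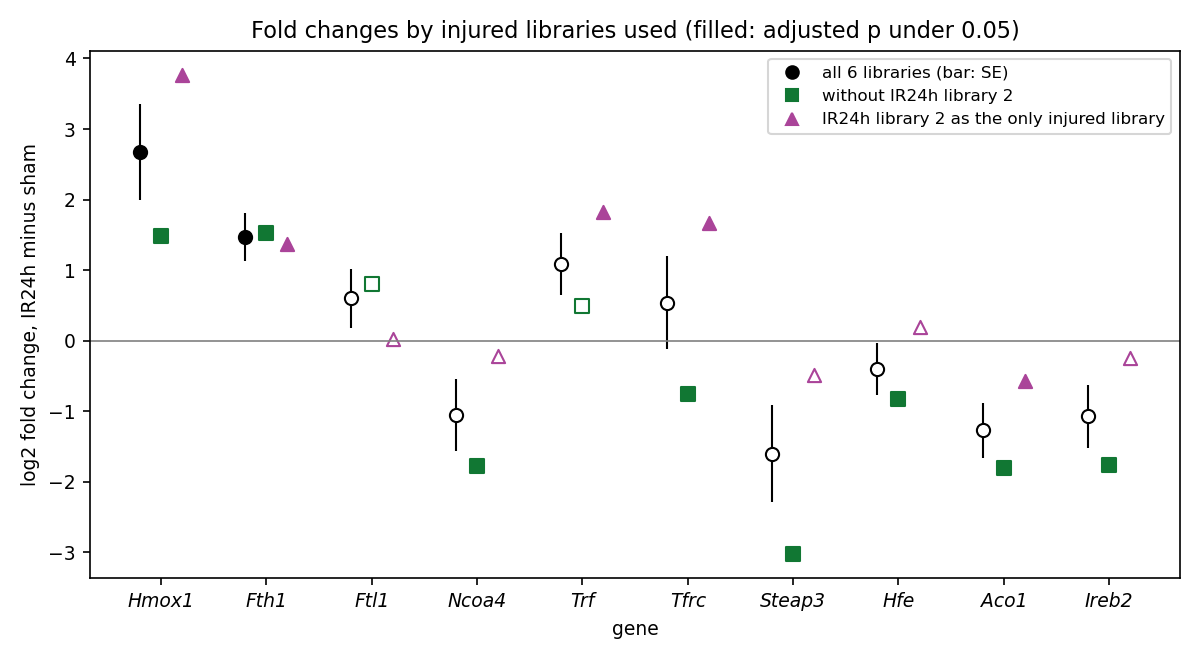
Log2 fold change of IR24h against sham for each of the 10 genes with all libraries (black circles, bar: SE), without IR24h library 2 (green squares) and with that library as the only injured one (purple triangles); filled symbols have an adjusted p under 0.05. Fth1 stays between 1.37 and 1.52, whereas Tfrc goes from −0.76 to 1.67.

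Markers of cells that handle heme and iron differed in part. Of 13 macrophage markers, 11 were tested, 4 rose and 0 fell, beside 8.65% higher and 7.62% lower of all genes tested. Vsig4 and Marco were at 0 in every library. Their summed level was 98.5 to 107 CPM across sham and 194, 115 and 301 CPM across IR24h. The genes that rose were Cd68, Lyz2, Itgam and Msr1, and all 4 were above sham in library 2 too. Cd68 was at 18 CPM there against 3.8 to 4.68 CPM in sham, and Lyz2 at 35.2 against 7.14 to 8.47 CPM. Csf1r, C1qa, C1qb and C1qc, which make up much of the sum, were below all sham libraries in library 2 and above them in library 3. In library 1 C1qa, C1qb and C1qc were below all of sham and Csf1r above. Adgre1 had 4.4, 4.52 and 4.32 CPM across sham and 0.284, 3.63 and 0.35 CPM across IR24h, and was not called. Among 8 red cell genes 6 were tested and 0 called, with a summed level of 24.5 to 68.8 CPM across sham and 58.9, 17.7 and 86.5 CPM across IR24h. All 6 tubular injury markers rose, from a summed 22.2 to 33.8 CPM in sham to 1285, 3114 and 2320 CPM in IR24h libraries 1 to 3, with library 2 highest. The part of these cell types in the values of the 10 genes was not tested.

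Other genes of iron and heme metabolism were taken from 6 lists with 112 genes in the table. Of these, 99 were tested, 8 rose (8.08%), 9 fell (9.09%) and 82 were not called. These shares are near those of all genes tested, 8.65% and 7.62%, so the counts do not set the lists apart, and the values that follow describe single genes. A list's counts cover the genes that passed the expression filter, which a gene near 0 in sham could pass through the injured libraries alone. In the list of iron uptake, export and storage 3 of 19 rose and 2 fell, with a median log2 fold change of −0.34. Lcn2, which encodes the siderophore carrier NGAL, had 0.754 ± 0.349 CPM in sham and 283 ± 40.1 CPM after injury, a log2 rise of 8.55 ± 0.48 (adjusted p = 6.67e-04). Cp, which encodes the iron-oxidising plasma protein ceruloplasmin, had 14.7, 13.9 and 11.7 CPM across sham and 301, 176 and 258 CPM across IR24h. The log2 fold change of Cp was 4.19 ± 0.32 (adjusted p = 8.21e-04), and it was called whichever single library was left out. Lcn2 held its call in the same way. Pcbp2, an RNA-binding protein that also acts as an iron chaperone, rose by 1.69 ± 0.35 on the log2 scale (adjusted p = 0.0192), and 30.2% of its exon bases lie opposite Map3k12, and its implied length differed between the groups.

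Of the same list, 2 genes of uptake fell. Slc11a2, which encodes the divalent metal transporter DMT1, had 97.1, 124 and 99.2 CPM across sham and 31.4, 51.2 and 36.4 CPM across IR24h (log2 fold change −1.43 ± 0.28, adjusted p = 0.0164). All injured libraries were below all sham libraries, library 2 included. Gm5475, a gene model opposite 6.33% of the exon bases of Slc11a2, was also lower (−2.92, adjusted p = 0.0191). Slc22a17, which encodes a receptor described for NGAL, fell by 1.81 ± 0.39 on the log2 scale (adjusted p = 0.022), with a differing implied length. The most abundant gene of the list was Lrp2, the endocytic receptor megalin of the proximal tubule. It had 2050 ± 372 CPM in sham against 485 ± 435 CPM after injury and did not pass the test (log2 fold change −2.08 ± 0.62, adjusted p = 0.0593). It was called lower by limma-voom (−2.44, adjusted p = 0.035), by DESeq2 (−2.07, adjusted p = 0.00369) and without IR24h library 2 (−3.14, adjusted p = 3.85e-04).

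Of 15 genes of heme breakdown and transport, 4 rose (26.7%) and 2 fell (13.3%), beside 8.65% and 7.62% of all genes tested. With library size only, 1 rose and 1 fell, beside 2.92% and 4.49% of all genes. The list's median log2 fold change was 0.42, and −0.16 with library size only. Haptoglobin (Hp), which binds free hemoglobin, had 0.118 ± 0.103 CPM in sham against 6.33 ± 3.12 CPM after injury (log2 fold change 5.62 ± 0.8, adjusted p = 0.00578). These levels rest on 0, 4 and 3 counts in sham and on 42, 188 and 39 in IR24h, and the implied length of Hp could not be compared. Lrp1, a receptor for heme bound to hemopexin, had 26.1, 31 and 17.5 CPM across sham and 380, 54.2 and 112 CPM across IR24h (2.87 ± 0.7, adjusted p = 0.0331). Blvrb, a biliverdin reductase that acts after heme oxygenase, had 15.7 ± 2.07 and 40.2 ± 15.3 CPM (1.35 ± 0.35, adjusted p = 0.039). For Lrp1 and Blvrb, unlike Hmox1, library 2 was the lowest injured library. Maff, a small MAF protein, went from 2.15 ± 0.901 to 9.22 ± 3.68 CPM (2.1 ± 0.48, adjusted p = 0.026), with a differing implied length. Of the heme exporter Abcg2 and the transporter Flvcr2, Abcg2 fell from 428 ± 16.6 to 193 ± 63.4 CPM (−1.15 ± 0.3, adjusted p = 0.0419). Flvcr2 fell from 15.1 ± 3.33 to 4.32 ± 2.4 CPM (−1.8 ± 0.43, adjusted p = 0.0305).

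In heme synthesis 1 of 12 genes fell and 0 rose, beside 7.62% lower and 8.65% higher of all genes tested. All 12 had a log2 fold change below 0, with a median of −0.56. At an unadjusted p under 0.05 the counts were 5 lower and 0 higher, by limma-voom 2 and 0, and by DESeq2 5 and 0. The shares of all genes that were lower by these rules were 15.5%, 8.8% and 12.5%. The gene that fell was Abcb10, a mitochondrial transporter that stabilises iron import, with 40, 44 and 35 CPM across sham and 18, 19.4 and 14.7 CPM across IR24h (−1.19 ± 0.25, adjusted p = 0.019). Alas1, the rate-limiting enzyme outside red cells and the most abundant gene of the list, had 221 ± 75.6 and 124 ± 70.1 CPM (−0.83 ± 0.46, adjusted p = 0.243). Over all genes tested, 48% had a log2 fold change below 0. With library size as the only scaling the median of all genes was −0.39 and that of this list −1.06. The implied length of Cpox and Fech differed between the groups. With the length offset 1 gene of the list was called higher, beside 11.7% of all genes, and 1 lower, beside 7.58%. The list's median was then −0.41, and that of all genes 0.11.

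Among genes that build or carry iron-sulfur clusters 4 of 29 fell, 1 rose and 24 were not called. Of all genes tested, 7.62% were lower and 8.65% higher. The list's median log2 fold change was −0.42, beside 0.05 for all genes. With library size only these medians were −0.85 and −0.39. Cisd1, an iron-sulfur protein of the outer mitochondrial membrane, had 205, 201 and 253 CPM across sham and 57, 38.3 and 59.5 CPM across IR24h (−2.09 ± 0.28, adjusted p = 0.00473). Fdx1, a mitochondrial ferredoxin, had 97.2 ± 2.5 and 26.7 ± 5.83 CPM (−1.87 ± 0.26, adjusted p = 0.00544). Both were lowest in IR24h library 2 and were called whichever single library was left out. Isca1, an assembly factor, fell by 1.79 ± 0.37 on the log2 scale (adjusted p = 0.0184). Nfs1, the desulfurase that supplies sulfur, fell from 133 ± 6.53 to 38.5 ± 14.5 CPM (−1.78 ± 0.32, adjusted p = 0.0125). The higher gene was Bola1, an assembly factor of mitochondria, with 1.02 ± 0.199 CPM in sham against 25.3 ± 11.8 CPM after injury (4.61 ± 0.49, adjusted p = 0.00212). Hspa9, the chaperone most abundant in this list, had 592 ± 8.8 and 403 ± 170 CPM (adjusted p = 0.291), with a differing implied length.

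The remaining lists had no called gene. Of 11 tested genes of systemic iron control, 0 were called by edgeR, limma-voom or DESeq2, and 1 higher and 1 lower had an unadjusted p under 0.05. Bmp6, the ligand that induces hepcidin and the most abundant gene of that list, had 78.5 ± 8.97 and 60.8 ± 47.7 CPM (adjusted p = 0.655). Its log2 fold change without IR24h library 2 was −1.22 (adjusted p = 0.00991). Hepcidin (Hamp) and erythropoietin (Epo) did not pass the expression filter. Of 13 genes for the turnover of ferritin, the autophagy machinery and hypoxia factors, 0 were called by edgeR or limma-voom. DESeq2 called 1 higher, and 1 higher and 2 lower had an unadjusted p under 0.05. Tax1bp1, an autophagy receptor, had 247 ± 14 and 219 ± 89.4 CPM (adjusted p = 0.743).

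**Figure D4:**
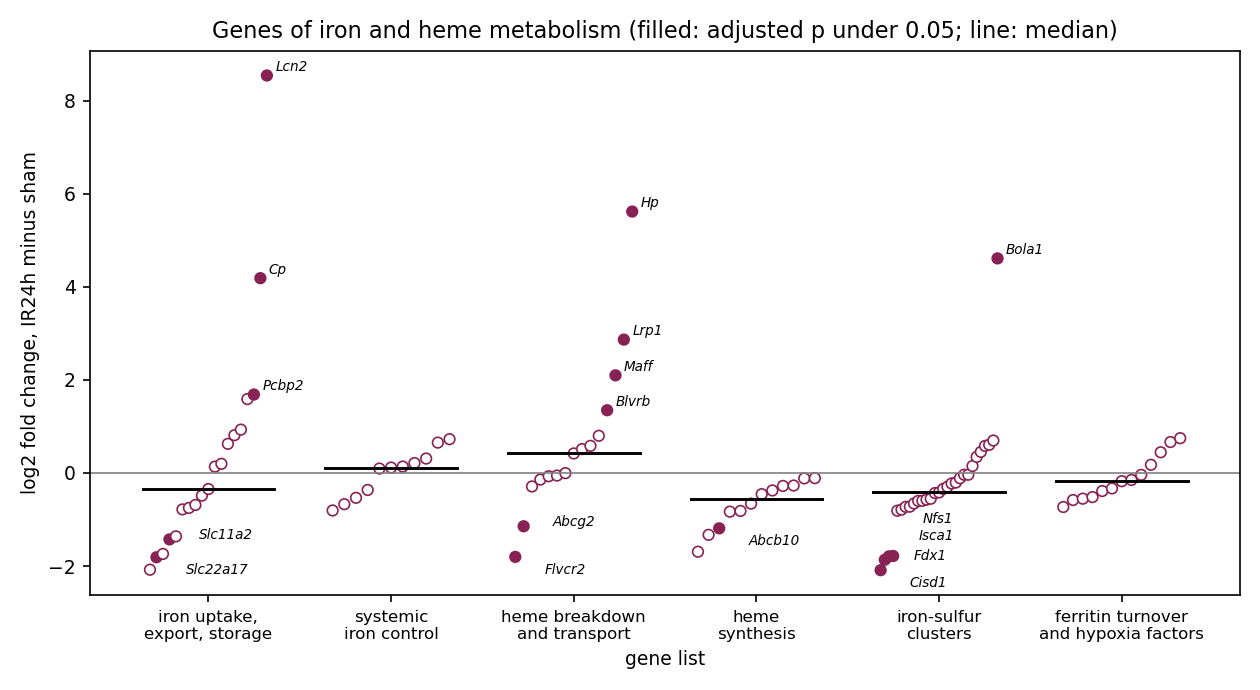
Log2 fold change of IR24h against sham for each tested gene of the 6 lists of iron and heme metabolism, ordered by value within a list; filled points have an adjusted p under 0.05 and are named, and lines are list medians. All 12 heme synthesis genes lie below 0, and Lcn2, Hp, Bola1 and Cp are the highest points at 4.19 to 8.55.

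Without sham library 1, 2 or 3, 13 of the 19 named genes called with all libraries, Hmox1 and Fth1 included, were no longer called (adjusted p = 0.0594 to 0.167). Lcn2, Cp, Hp, Bola1, Cisd1 and Fdx1 remained. In those fits 2.03, 1.78 and 2.1% of all genes were higher and 1.7, 1.53 and 1.41% lower. Without IR24h library 1, where 6.04% of all genes were higher and 5.08% lower, Maff, Blvrb, Flvcr2 and Abcg2 were no longer called. Without IR24h library 3 (5.87% higher, 5.41% lower) the calls of Hmox1, Fth1, Slc22a17, Lrp1, Maff, Blvrb, Abcg2 and Isca1 were lost. With library size only, 11 of the 19 were not called, namely Hmox1, Fth1, Pcbp2, Slc11a2, Lrp1, Maff, Blvrb, Abcg2, Abcb10, Isca1 and Nfs1. The lists without IR24h library 2 held 17 higher and 34 lower genes in place of 8 and 9, beside 23.9% and 24.5% of all genes tested in that fit.

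The libraries' pattern for single genes was set beside the other tested genes that averaged 10 CPM or more, by the root mean square distance between log2 CPM centred over the 6 libraries. The genes nearest to Hmox1 were Cyr61 at a distance of 0.23, a matricellular protein, Myof at 0.38, a membrane repair protein, and Anxa3 at 0.40, an annexin. Cyr61 had 20.4, 16.1 and 12.6 CPM across sham and 35.7, 172 and 44.6 CPM across IR24h, with the same high library 2. Nearest to Fth1 were Manf (0.13), Flot1 (0.14) and Vat1 (0.14), with no difference in implied length. They were higher in IR24h by 1.28 to 1.72 on the log2 scale. Such a rise follows from choosing them by the Fth1 pattern, so it says nothing on the size of the rise of Fth1. Among those nearest to Trf were Lrrfip1 (0.13) and Slc5a3 (0.19). Nearest to Hfe were Enpp3 (0.09), Tmem55a (0.09) and Cdc40 (0.10), which like Hfe were near sham in IR24h library 2 and lower in libraries 1 and 3.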

How the data were processed

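RNA-seq was made on the renal cortex of 3 sham and 3 IR24h mouse samples. The authors deposited 1 table with raw read counts and FPKM values (scaled by gene length and read total) per gene, per the file headers. Per the submitters' processing notes, CASAVA 1.8 and TopHat2 2.0.6 were used and the builds mm10 and GRCh38 are named; the sources used here do not give the read counter, annotation or strand setting. Of 22040 genes, 83 had no sham value and were left out. Identifiers of 22010 matched GENCODE M21 (GRCm38), the source of coordinates and transcript sequences.

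The deposited counts were tested with edgeR 4.0.16 in R 4.3.3 after its expression filter, with TMM scaling and the quasi-likelihood test, 2-sided, adjusted by Benjamini-Hochberg over 13609 genes and called at an adjusted p under 0.05. SE was derived from the F statistic. CPM uses TMM-scaled library sizes. Gene length was implied from count, FPKM and library total for genes with at least 5 counts. The scripts were tested on simulated data. Alternatives were DESeq2 1.42.0, limma 3.58.1 (voom), other scalings, no filter, a length offset, a replicate block and leaving out libraries. The named genes are the 10 members and, from each list, up to 4 called genes in each direction, if averaging 5 CPM or more in the higher group, and the most abundant gene; near-identical copies of ferritin; and, for Hmox1, Fth1, Trf and Hfe, the 3 genes of nearest pattern, of which 1 is not reported here. Members, lists and tests were chosen with earlier results of these data known. Tables and figures used Python 3.11.15, pandas 2.3.3 and matplotlib 3.10.9.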

Additional observations from a re-analysis of the deposited data

How the results depend on the processing

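All-gene counts were 1177 higher and 1037 lower. They were 398 and 611 scaled by library size only, 2073 and 1695 with DESeq2, 2690 and 2749 with IR24h library 2 as the only injured library, and 246 to 3297 and 196 to 3382 when 1 library was left out. Of the 10 iron and heme oxygenase genes, 2 were higher and 0 lower. With library size only and with the replicate block 0 were higher, with limma-voom 1 was higher and 1 lower, with DESeq2 1 was lower, and with IR24h library 2 as the only injured library 4 were higher and 1 lower. Leaving out 1 library gave 0 to 2 higher and 0 to 6 lower. List genes, 8 higher and 9 lower, were 4 and 4 with library size only, 13 higher with the length offset, 15 lower with DESeq2 and 23 and 29 with IR24h library 2 as the only injured library. They ranged from 4 to 17 and 2 to 34 when 1 library was left out.

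The log2 fold change of Hmox1 was not called with library size only (2.52, adjusted p = 0.115) or limma-voom (2.23, adjusted p = 0.0526), and that of Fth1 with library size only (1.04, adjusted p = 0.222). With IR24h library 2 as the only injured library Tfrc (1.67), Trf (1.83) and Aco1 (−0.57) were called, and Hfe (0.20), Bmp6 (0.56), Hspa9 (0.02) and Tax1bp1 (0.35) turned positive. Aco1 was also called by limma-voom (−1.39) and DESeq2 (−1.26). Ftl1 summed with Ftl1-ps1, chosen after seeing the data, gave −0.01. When 1 library was left out, Hmox1 ranged from 1.48 to 3.08, Fth1 from 1.28 to 1.63, Ftl1 from 0.35 to 1.03, Tfrc from −0.76 to 0.95, Ncoa4 from −1.78 to −0.67, Hfe from −0.83 to −0.13, Aco1 from −1.80 to −1.06, Ireb2 from −1.76 to −0.81, Steap3 from −3.02 to −1.20 and Trf from 0.49 to 1.42. Without IR24h library 1, Bmp6 was at 0.00 and Tax1bp1 at 0.07, and neither was called. Their values without IR24h library 2 were −1.22 for Bmp6, called, and −0.53 for Tax1bp1, not called. The causes were not tested.

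The groups share replicate numbers, and the labels do not say whether same-numbered libraries were paired. Same-numbered libraries deviated together at r = −0.106, 0.112 and 0.217, and those of unlike number at −0.253 to 0.172. With 3 libraries per group these values cannot settle whether there was pairing. With the replicate block Hmox1 was 2.20 (adjusted p = 0.0676) and Fth1 1.46 (adjusted p = 0.0652), not called, nor were Blvrb and Abcg2, whereas Lrp2 was called (−2.44, adjusted p = 0.0285). All genes gave 814 higher (5.98%) and 843 lower (6.19%), and not every library correlated best with its own number. Depth limits Steap3 in the injured libraries most, at 6 to 136 counts.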
